A study of Homo sapiens with 10 samples.

Results

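The comparison of OGG1 knockout with MUTYH knockout HAP1 cells rested on 4 of the 10 RNA-seq libraries of the series, namely OGG1 clones 1 and 22 and MUTYH clones 7 and 8. They were chosen by genotype and clone number, and no expression value entered the choice. HAP1 is a near-haploid, adherent human line derived from the leukaemia line KBM-7, so disruption of the single copy of most genes gives a knockout. The genotype labels of the 2 groups were OGG1-/ and MUTYH-/, and each library came from 1 CRISPR-Cas9 clone of a commercial supplier, grown untreated in IMDM with serum. RNA was extracted in the presence of butylated hydroxytoluene and deferoxamine, which limit oxidation during isolation. The other 6 libraries were 2 untreated WT clones, the same WT clones after H2O2, and 2 clones without either glycosylase (DKO). The study's clone table states that both DKO clones were derived from the same OGG1 clone, whose product number ends in 22. The label of OGG1 clone 22 carries that number, although the label of clone 1 does not match the other product number. The DKO libraries are therefore not independent of the OGG1 libraries. The untreated WT and DKO libraries entered only the estimates of spread and scaling and are given as reference levels, and the H2O2-treated libraries were not used here. With 2 clones per genotype, P values measure only the spread between these clones.

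OGG1 and MUTYH act at different steps on the same lesion. OGG1 excises 8-oxoguanine (OG) paired with cytosine, whereas MUTYH removes the adenine that is misinserted opposite OG. Loss of either therefore removes a different step. The study measured global OG by mass spectrometry and reported no significant difference of the knockouts from WT. A direct contrast of the knockouts asks which transcripts differ with the glycosylase that is missing, in cells that share the editing procedure and the supplier.

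The OGG1 guide is shown because it marks where the OGG1 clones were cut. Its 20 bases matched 1 site of chromosome 3 in GRCh38, chr3:9750311-9750330 on the minus strand, within coding sequence of exon 1 of OGG1, which lies on the plus strand. Capitals mark the adjacent NGG motif required by Cas9. The MUTYH guide was not analysed here.
OGG1 guide: gtacgatgccccatgcgcctGGG
The promoters of THSD7B and MGMT are shown because these genes gave the smallest adjusted p among genes higher in OGG1 knockout and the single DEG of the direct repair list, and they lay on opposite sides of the comparison. They were selected for printing after their values were seen. Each sequence is the 250 bases before the RefSeq start in GRCh38.p14 on the plus strand, with CpG dinucleotides in capitals, chr2:136765295-136765544 for THSD7B and chr10:129466991-129467240 for MGMT. The THSD7B window held 20 CpGs and the MGMT window 36.
THSD7B promoter: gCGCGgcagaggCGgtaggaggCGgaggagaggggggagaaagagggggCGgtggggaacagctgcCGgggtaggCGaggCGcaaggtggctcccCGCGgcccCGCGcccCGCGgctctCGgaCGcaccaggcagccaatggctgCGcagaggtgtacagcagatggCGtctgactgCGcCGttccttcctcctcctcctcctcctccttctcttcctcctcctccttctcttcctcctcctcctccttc
MGMT promoter: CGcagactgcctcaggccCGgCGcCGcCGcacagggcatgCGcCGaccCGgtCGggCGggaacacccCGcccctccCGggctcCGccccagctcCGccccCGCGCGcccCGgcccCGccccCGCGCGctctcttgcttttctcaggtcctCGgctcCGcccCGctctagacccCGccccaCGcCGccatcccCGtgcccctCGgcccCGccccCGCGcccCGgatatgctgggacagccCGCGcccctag

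Total counts were 22225091 and 22362161 in OGG1 clones 1 and 22 and 22404890 and 22348806 in MUTYH clones 7 and 8, so that 1 CPM, the library-size normalized count used below, rested on 22.2 counts and carried a counting error of 21.2%. Mitochondrial genes took 6.59% and 6.1% of the counts of OGG1 clone 1 and MUTYH clone 7, against 4.38% and 3.75% in OGG1 clone 22 and MUTYH clone 8. The mitochondrial share therefore separated the clones within a genotype and not the genotypes. Clones fell into matched pairs by the data. OGG1 clone 1 was most like MUTYH clone 7 (Pearson r of log2 CPM across genes 0.985), and OGG1 clone 22 was most like MUTYH clone 8 (0.974). The 2 OGG1 clones had an r of 0.970 and the 2 MUTYH clones 0.972. Genes that differed by more than 2-fold numbered 872 between clones 1 and 7 and 1564 between clones 22 and 8, compared with 2001 between the OGG1 clones and 1625 between the MUTYH clones. The pairs were matched on likeness in these data, so their smaller counts largely follow from the matching. The unmatched clones of different genotype differed in 1635 genes (OGG1 clone 1 and MUTYH clone 8) and 2056 genes (OGG1 clone 22 and MUTYH clone 7). The differences below are therefore given per matched pair as well as per genotype.

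Transcripts of the targeted genes were examined first. OGG1 had 27 counts in OGG1 clone 1 and 254 in OGG1 clone 22, against 311 and 313 in MUTYH clones 7 and 8. Both OGG1 clones lay below both MUTYH clones, but OGG1 clone 22 was close to the MUTYH clones and to WT, which had 275 and 295 counts. The log2 fold change (log2FC, OGG1 knockout minus MUTYH knockout) was -1.18 ± 0.76 (SE, P. value 0.165, edgeR). It was -3.51 without OGG1 clone 22, where it met the DEG criterion given below, and -0.33 without OGG1 clone 1. MUTYH had 119 and 82 counts in the OGG1 clones and 101 and 83 in the MUTYH clones, which overlapped, with a log2FC of 0.12 ± 0.42. Gene-level counts cover the whole transcript, and reads on either side of a small indel still count, so they do not check the loss of the proteins. The study verified loss of both proteins in all clones by targeted mass spectrometry. Its clone table gives deletions of a few bases for the OGG1 clones. OGG1 overlaps CAMK1 and TADA3 on the opposite strand, and MUTYH overlaps TOE1. CAMK1 met the DEG criterion at low counts, with 1 and 2 in the OGG1 clones against 18 and 6 (log2FC -2.92). It was named after its values were seen, and reads of OGG1 and CAMK1 may have been assigned to either gene. The strand setting of the counting was not stated.

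Of 59453 genes in the table, 17881 passed the filter on low counts and were tested with the edgeR quasi-likelihood test. Differentially expressed genes (DEGs) had an unadjusted P. value of at most 0.05 and a log2FC beyond 1 in either direction, which is the criterion of the study. By this rule 256 genes, or 1.43% of those tested, differed between the knockouts. The count was 473 without MUTYH clone 7 and 532 without OGG1 clone 1, 490 without the filter, and 101 with at least 10 counts in every library. Of the 256, 153 (0.856%) were higher and 103 (0.576%) were lower in OGG1 knockout. Without a fold threshold, 453 genes (2.53%) had an unadjusted P. value of at most 0.05, and a single gene, THSD7B, passed a Benjamini-Hochberg (BH) adjusted p of 0.05 (0.00559% of genes tested). In a fit of the 4 knockout libraries alone, 186 DEGs were found, of which 158 were among the 256. That fit gave 0 genes by adjusted p with edgeR and 283 at the unadjusted threshold. With matched pairs as a replicate block, the 8 untreated libraries gave 328 DEGs (1.83%), of which 235 were among the 256. The 4 knockout libraries gave 297 DEGs (1.75% of 16996 tested), of which 175 were among the 256. Over 8 libraries the block set WT clone 2 and DKO clone 14 with clones 22 and 8. It set WT clone 11 and DKO clone 4 with clones 1 and 7. The pairs were matched in these data, which can lower the fitted spread and limits the P values of blocked fits. The common coefficient of variation was 0.168 with the block over 8 libraries and 0.255 without it. In the paired fit of 4 libraries, which leaves 1 residual degree of freedom, 9 genes (0.053%) passed the adjusted p. They were THSD7B, PTPN3, NPR3, FRMD4A, MGMT, CHST15, RELN, LPL and POSTN, and the last 3 were named after their values were seen. Of the 9, only THSD7B also passed in the fit of 8 libraries without the block. There RELN had an unadjusted P. value of 0.0353 (edgeR), and LPL was not among the 256 DEGs.

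DEGs were mostly transcripts of low level. The median level of the 256, taken as the larger of the 2 genotype means, was 1.82 CPM, against 17.9 CPM over all genes tested. In 81 DEGs this level was under 1 CPM, and in 37 it reached 10 CPM. In 76 DEGs (29.7%) 1 genotype had at most 10 counts in its 2 libraries together, 30 in OGG1 knockout and 46 in MUTYH knockout, whereas this held for 2.45% of genes tested. Of 218 DEGs matched by symbol to GENCODE, 86.7% were protein-coding and 9.63% were long non-coding RNAs, compared with 87.0% and 6.79% of the tested genes so matched.

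The 2 OGG1 libraries did not overlap the 2 MUTYH libraries in 240 of the 256 DEGs, a property that 24.6% of all genes tested shared. In 124 DEGs both matched pairs differed beyond 1 on the log2 scale in the same direction. This held for 172 of all genes tested (0.962%), which include the 124. DEGs were called on these same libraries, so both properties are largely set by the call and give it no separate support. The median size of the log2 difference in DEGs was 1.59 for clone 22 minus clone 8 and 1.23 for clone 1 minus clone 7. Over all genes tested these medians were 0.27 and 0.16. In 9 DEGs the pairs pointed in opposite directions. Among them, GFRA1, a co-receptor for GDNF, had 2 and 926 counts in the OGG1 clones and 8 and 15 in the MUTYH clones, and HCLS1, a haematopoietic cytoskeletal adaptor, had 70 and 1170 against 100 and 79. Both rested on OGG1 clone 22 and were named after their values were seen. Without that clone their log2FC was -2.43 and -0.35. Non-overlapping DEGs with a level of at least 1 CPM that differed beyond 1 in both pairs numbered 84, of which 49 were higher and 35 lower in OGG1 knockout.

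**Figure D1:**
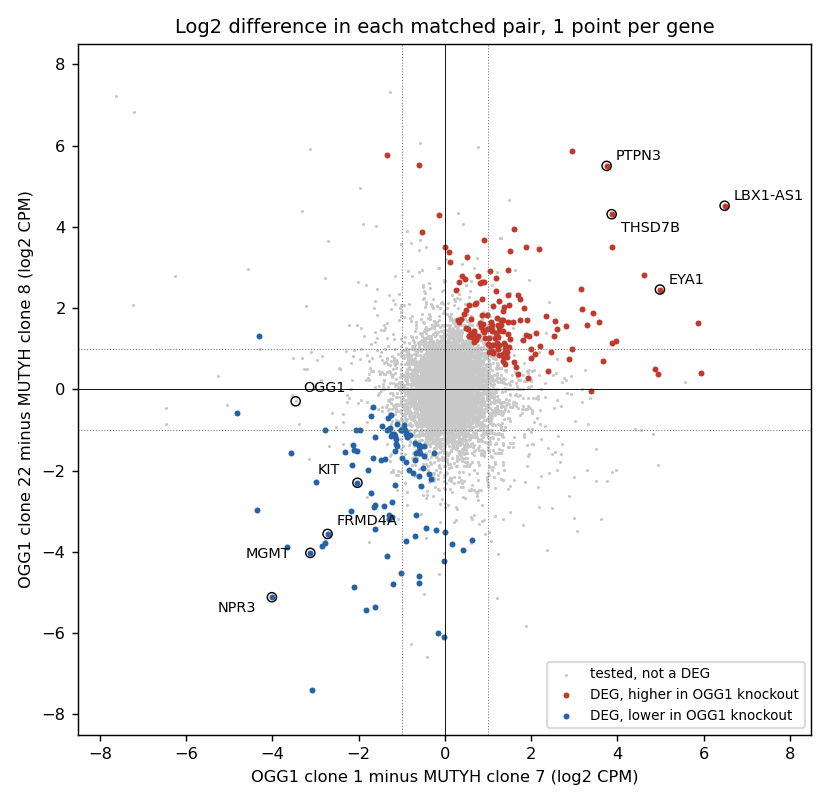
Log2 difference in CPM between OGG1 and MUTYH knockout for clone 1 minus clone 7 (x axis) and clone 22 minus clone 8 (y axis), with 1 point per tested gene, DEGs in colour, labelled genes circled and dotted lines at 1 and -1. Of the 256 DEGs, 124 lie beyond the dotted lines in the same direction in both pairs, while OGG1 itself differs in the pair of clones 1 and 7 and lies near 0 in the other.

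Among genes higher in OGG1 knockout, 8 of the 10 with the smallest P. value of those 84 are described, namely THSD7B, PTPN3, LBX1-AS1, ZNF329, EYA1, INHBE, FAM167B and IFITM1. THSD7B, a membrane protein with thrombospondin repeats (chr2:136765545-137677718, GRCh38), had 101 and 137 counts in the OGG1 clones and 5 and 5 in the MUTYH clones. The MUTYH clones stood apart from every other genotype, since WT had 227 and 191 counts and DKO 254 and 219. The mean was 5.34 ± 1.02 CPM (SD, n = 2) in OGG1 knockout and 0.226 ± 0.009 CPM in MUTYH knockout, with a log2FC of 4.53 ± 0.34 (adjusted p = 0.0352 and 0.0279 with pairs as a replicate block, edgeR). The ratio of summed counts was 23.8 (exact 95% interval 12.7 to 50.3, counting error only).

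PTPN3, a FERM-domain tyrosine phosphatase (chr9:109375466-109498313), had 326 and 495 counts in the OGG1 clones and 22 and 9 in the MUTYH clones. Both WT clones, with 142 and 317, and both DKO clones, with 518 and 476, lay above the MUTYH clones. Its log2FC was 4.69 ± 0.56, and 5.52 without MUTYH clone 7. LBX1-AS1, a long non-coding RNA (chr10:101229577-101270148) whose neighbour LBX1 encodes a homeobox factor of muscle precursors, had 174 and 227 counts against 0 and 8, with 195 to 246 in the WT and DKO clones. Here too MUTYH knockout alone was near 0, and the ratio of summed counts was 50.1 (25.2 to 117). Its log2FC of 5.60 ± 0.76 ranged from 4.65 without MUTYH clone 7 to 10.6 without MUTYH clone 8, where the remaining MUTYH library is at 0 and the value depends on the prior count. ZNF329, a zinc finger gene on chromosome 19, had 146 and 73 counts against 14 and 17, with a log2FC of 2.81 ± 0.51, and 2.2 without OGG1 clone 1.

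EYA1, a transcriptional co-activator and phosphatase of organ development, had 254 and 184 counts in the OGG1 clones and 6 and 32 in the MUTYH clones. The WT clones, at 27 and 73 counts, lay nearer to the MUTYH clones, while the DKO clones, at 241 and 322, lay with the OGG1 clones. The log2FC was 3.53 ± 0.73. It was 5.12 without MUTYH clone 8 and 2.80 without MUTYH clone 7.

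The other 3 described were low in both genotypes. INHBE, the inhibin beta E subunit, had 28 and 37 counts against 10 and 10. FAM167B had 23 and 23 against 7 and 6, and IFITM1, an interferon-induced antiviral membrane protein, had 74 and 95 against 23 and 29. In each of them the clones of a genotype lay close together and the genotypes did not overlap. Their log2FC ranged from 1.68 ± 0.37 for INHBE to 1.79 ± 0.40 for FAM167B. IFITM1 was not on the interferon list described below, of which no member was a DEG.

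Among genes lower in OGG1 knockout, the corresponding 10 were FRMD4A, NPR3, MGMT, ZDHHC15, CYTOR, KCNE3, ADCY1, CHST15, DIO2 and SDK1. FRMD4A, a FERM-domain scaffold of cell polarity (chr10:13643706-14462142), had 28 and 23 counts in the OGG1 clones and 192 and 294 in the MUTYH clones. WT, with 144 and 149, lay near MUTYH knockout, and DKO, with 23 and 26, lay with OGG1 knockout. The mean was 1.15 ± 0.185 CPM in OGG1 knockout and 10.9 ± 2.83 CPM in MUTYH knockout, with a log2FC of -3.25 ± 0.31 (adjusted p = 0.104 and 0.0679 with the replicate block, edgeR). FRMD4A overlaps several genes on the opposite strand, PRPF18 among them.

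MGMT, which removes alkyl groups from the O6 position of guanine in a single step (chr10:129467190-129770983), had 17 and 17 counts in the OGG1 clones and 160 and 309 in the MUTYH clones. WT lay between them with 74 and 103, and DKO was lower still with 7 and 1. All 4 genotypes were therefore separated without overlap, with the OGG1-lacking clones at the low end. The mean was 0.764 ± 0.0173 CPM in OGG1 knockout and 10.5 ± 4.35 CPM in MUTYH knockout, and the log2FC was -3.77 ± 0.59 (adjusted p = 0.858, edgeR). With pairs as a replicate block the adjusted p was 0.321 over 8 libraries, and in the paired fit of 4 libraries, with 1 residual degree of freedom, MGMT passed the threshold.

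NPR3, the clearance receptor for natriuretic peptides (chr5:32689070-32791724), had 1 and 3 counts against 45 and 173, and WT (8 and 10) and DKO (7 and 4) lay near the OGG1 clones. The MUTYH clones were thus the ones that stood apart, although they differed from each other. The ratio of summed counts, MUTYH over OGG1 knockout, was 54.5 (21.0 to 202). KCNE3, an accessory subunit of potassium channels, had 1 and 0 counts against 58 and 14, with 5 and 7 in WT and 1 and 0 in DKO. Its ratio of 72.0 had an interval of 12.5 to 2880, so its size was hardly bounded from above. Its log2FC of -5.88 ± 1.20 was -8.22 without OGG1 clone 1, where the remaining OGG1 library is at 0, and -4.47 without MUTYH clone 7.

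CHST15, which sulfates chondroitin, had 2 and 9 counts against 47 and 161. DIO2, which activates thyroid hormone, had 2 and 8 against 25 and 136. ADCY1, an adenylyl cyclase, had 47 and 45 against 125 and 344. In all 3 the MUTYH clones differed severalfold from each other, and clone 8 was the higher. Without MUTYH clone 8 the log2FC was -3.12 for CHST15, -2.35 for DIO2 and -1.49 for ADCY1, compared with -4.21, -3.97 and -2.34 with it. For NPR3 the value was -4.46 without MUTYH clone 8 and -6.57 without OGG1 clone 22, the clone without which CHST15 and DIO2 were at -5.59 and -5.21.

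ZDHHC15, a palmitoyltransferase, had 36 and 26 counts against 127 and 110. The OGG1 clones alone were low, since WT (144 and 114) and DKO (155 and 99) were at the level of MUTYH knockout. CYTOR, a long non-coding RNA, had 64 and 49 against 168 and 165, and SDK1, a synaptic adhesion protein, had 66 and 45 against 217 and 276. For both of these genes WT lay nearer to OGG1 knockout, with 75 and 54 counts of CYTOR and 100 and 62 of SDK1. The log2FC was -1.94 ± 0.36 for ZDHHC15, -1.56 ± 0.31 for CYTOR and -2.15 ± 0.50 for SDK1.

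These 18 genes kept their direction and their call in all 223 combinations of gene and alternative in which they were tested, including each fit with 1 library left out. They were selected on agreement of both pairs, so that a change of direction on leaving out a clone was unlikely by construction.

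**Figure D2:**
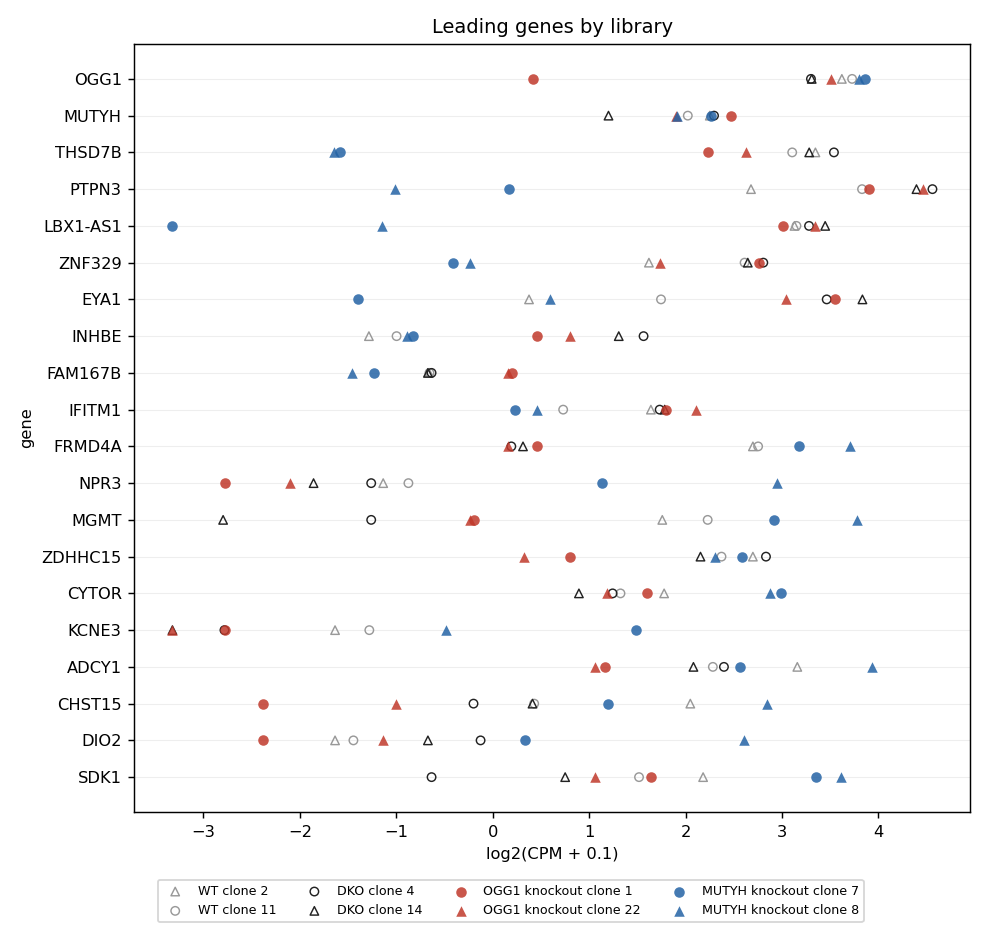
Level in each of the 8 untreated libraries, as log2(CPM + 0.1), for OGG1, MUTYH and the 18 leading genes described, with filled symbols for the knockouts compared and open symbols for WT and DKO. The filled red and blue symbols do not overlap in any of the 18 genes, and for THSD7B, PTPN3 and LBX1-AS1 the blue MUTYH symbols alone lie at low level.

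The placement of WT and DKO differed between the directions. A gene was counted as nearer to OGG1 knockout when the mean log2 CPM of the reference genotype lay closer to the OGG1 than to the MUTYH mean. Of the 153 DEGs higher in OGG1 knockout, WT was nearer to OGG1 knockout in 74 (48.4%) and DKO in 115 (75.2%). Of the 103 lower DEGs, WT was nearer to OGG1 knockout in 28 (27.2%) and DKO in 45 (43.7%). Over all genes tested the shares were 42.7% for WT and 50.8% for DKO. Among the 84 genes stable in both pairs, DKO was nearer to OGG1 knockout in 42 of the 49 higher genes and in 21 of the 35 lower ones. The DKO clones lack both proteins and descend from the same OGG1 clone, and these properties cannot be told apart here. By its product number that parent corresponds to OGG1 clone 22, whose library is part of the OGG1 mean. No test was applied to these shares.

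Of the 37 DEGs with a level of at least 10 CPM, 20 differed beyond 1 in both pairs without overlap of the genotypes, 8 higher and 12 lower in OGG1 knockout. Outside the genes above and KIT and RUNX1 below, those that kept the call with each library left out were named after their values were seen. ALX4, a homeobox factor of craniofacial and limb development, had 1327 and 1350 counts in the OGG1 clones and 51 and 190 in the MUTYH clones. The WT clones were split, at 1576 and 254, while both DKO clones (1525 and 1461) were high. Its log2FC was 3.48 ± 0.87, and 4.66 without MUTYH clone 8. PRAME, a cancer-testis antigen, had 349 and 298 counts against 30 and 80, with a log2FC of 2.56 ± 0.62, and 3.38 without MUTYH clone 8. Neither gene overlapped between the knockouts, and the 2 lower genes that follow did not either. LRRTM3, a synaptic adhesion protein, had 244 and 254 against 481 and 826, with a log2FC of -1.39 ± 0.36. PRDM16, a transcriptional regulator of brown fat and haematopoietic stem cells, had 161 and 79 against 375 and 553, with a log2FC of -1.95 ± 0.53, and -2.58 without OGG1 clone 1.

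Other abundant DEGs depended on single clones. TMEM47, a junctional membrane protein, had 4268 and 1352 counts in the OGG1 clones against 353 and 430 in the MUTYH clones (log2FC 2.85 ± 0.79). Its DKO clones were split, at 477 and 1862, and without OGG1 clone 1 the log2FC was 1.76 and the call was lost. CEP78, a centrosomal protein, had 2121 and 2212 against 3339 and 6594 (log2FC -1.19 ± 0.31), and without MUTYH clone 8 it was -0.68 and no longer called. ERBB2, the receptor tyrosine kinase HER2, had 699 and 276 against 129 and 203 (log2FC 1.56 ± 0.51). Without OGG1 clone 1 it was 0.71 and without MUTYH clone 7 it was 1.30, both uncalled. These 3 genes were also named after their values were seen.

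Among DNA repair genes MGMT was the 1 DEG, in lists so short that the background of 1.43% gives less than 1 call in each. None of the 11 DNA glycosylases was a DEG, and the median log2FC of that list was 0.10. NEIL1, which excises oxidized bases, had 1339 and 873 counts in the OGG1 clones and 1271 and 989 in the MUTYH clones. The largest difference apart from OGG1 itself was in TDG, the thymine DNA glycosylase, with 2441 and 2394 counts against 2745 and 3220 (log2FC -0.31 ± 0.15, P. value 0.0706, edgeR). None of 21 base excision repair genes acting after the glycosylase was a DEG, with log2FC from -0.39 for XRCC1 to 0.38 for APLF and a median of 0.01. None of 10 genes that clear oxidized nucleotides was a DEG, and NUDT1, which hydrolyses oxidized dGTP, had 414 and 687 counts against 442 and 530. Among 11 mismatch repair and direct reversal genes, MGMT alone was called, and the log2FC of the others lay between -0.165 and 0.21.

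Genes of the response to oxidants gave no calls, in lists for which the background of 1.43% likewise gives less than 1. There were 0 DEGs among 25 tested NRF2 targets (median log2FC -0.08, with 5 members above 0) and 0 among 16 peroxide scavenging enzymes (median -0.01, with 7 above 0) by edgeR, and no member of either list had an unadjusted P. value of at most 0.05. Over all genes tested, 50.5% had a log2FC above 0. AKR1C3, an aldo-keto reductase, came closest among the NRF2 targets, with 1 and 3 counts against 4 and 13. Of 3 tested mu-class glutathione transferases none was a DEG, and GSTM3 varied from 0 to 289 counts within the 4 libraries without regard to genotype.

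Stress genes gave some calls. The p53 targets held 1 DEG among 26 tested (3.85%, against 1.43% of all genes tested), GDF15, a stress cytokine, with 19 and 30 counts against 12 and 11 (log2FC 1.07 ± 0.40). Without OGG1 clone 22, MUTYH clone 7 or MUTYH clone 8 the call was lost, at 0.73, 1.17 and 0.97. The p53 list had a median log2FC of -0.17, with 8 of the 26 members above 0. Its lowest member was CDKN1A, the p53-induced cell cycle inhibitor (log2FC -0.88), with 86 and 192 counts against 80 and 435, which overlapped. The integrated stress response held 2 DEGs among 20 tested (10.0%), both higher in OGG1 knockout, and its median log2FC was 0.16 with 18 members above 0. They were INHBE, given above, and ASNS, asparagine synthetase, with 70 and 144 counts against 42 and 52 (log2FC 1.17 ± 0.42). The ASNS call was lost without OGG1 clone 22, MUTYH clone 7 or MUTYH clone 8, at 0.59, 1.06 and 1.29.

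Immediate early genes moved in both directions. FOS was higher in OGG1 knockout, with 34 and 49 counts against 21 and 19. FOSL2, also an AP-1 subunit, was lower, with 77 and 53 against 113 and 162, and so was NR4A2, an orphan nuclear receptor, with 108 and 82 against 133 and 388. The groups did not overlap in any of these 3 genes, and the remaining 18 tested members were not DEGs. The 3 of 21 made up 14.3%, against 1.43% of all genes tested. The log2FC was 1.03 ± 0.35 for FOS, -1.08 ± 0.41 for FOSL2 and -1.44 ± 0.46 for NR4A2. Without MUTYH clone 8 these values were 0.93, -0.84 and -0.53 and all 3 calls were lost, as they were without OGG1 clone 22 (0.77, -0.82 and -1.24). FOS also lost its call without MUTYH clone 7, at 1.15.

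No S-phase gene (23 tested), G2/M gene (20) or mitochondrially encoded mRNA (13) was a DEG, and their median log2FC was -0.10, -0.11 and 0.07. The mitochondrial mRNAs summed to 59030 and 40220 CPM in the OGG1 clones and 57470 and 33510 CPM in the MUTYH clones, so that the difference followed the matched pairs. None of 83 tested genes of the cytosolic ribosomal protein list was a DEG, and 79 of them had a log2FC above 0, with a median of 0.12 against 0.00 for all genes tested. Their summed level was 44500 and 71340 CPM in OGG1 knockout and 47570 and 59990 CPM in MUTYH knockout, which overlapped.

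**Figure D3:**
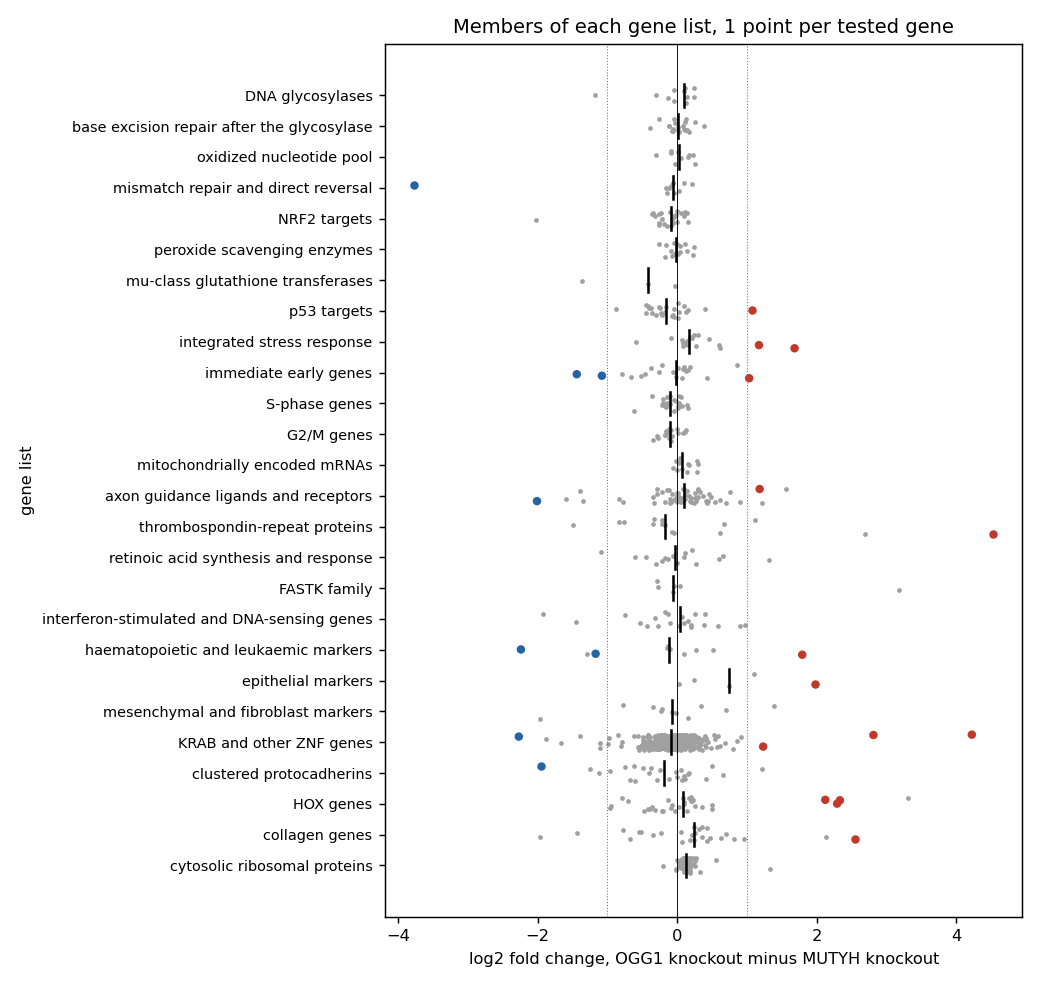
Log2FC of every tested member of 26 gene lists, OGG1 knockout minus MUTYH knockout, with 1 point per gene, black bars at list medians and dotted lines at 1 and -1. DEGs are drawn larger in red (higher) or blue (lower), and repair, oxidant response and cell cycle lists hold no DEG except MGMT.

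The following lists were chosen with earlier results of these data known, so their counts are not independent of them. Of 61 tested axon guidance ligands and receptors, SEMA5B was higher and SLIT3 lower in OGG1 knockout (3.28%, against 1.43% of all genes tested). SEMA5B, a semaphorin, had 83 and 93 counts against 39 and 38, and its log2FC of 1.18 ± 0.34 was called with each library left out. SLIT3, a secreted repellent, had 19 and 7 against 31 and 75 and lost its call without MUTYH clone 8, at -1.29, while it was -2.92 without OGG1 clone 1. Both knockouts lay below WT for SLIT3, which had 143 and 112 counts. Of 15 tested thrombospondin-repeat genes THSD7B was the 1 DEG (6.67%), while THSD7A had 116 and 51 counts against 244 and 228 (log2FC -1.5 ± 0.97). None of 16 tested retinoic acid genes and none of 6 FASTK family genes was a DEG. FASTKD2, a mitochondrial RNA-binding protein, had 0 and 2 counts in the OGG1 clones and 0 in both MUTYH clones, compared with 780 and 63 in WT, so it was near 0 in both knockouts. None of 22 interferon-stimulated and DNA-sensing genes was a DEG, and OAS2 had 11 and 50 counts against 25 and 210.

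Markers of blood cells were checked because HAP1 derives from a leukaemia. PTPRC, SPI1, GATA1 and LAPTM5 had at most 1 count and VAV1 at most 2 in any of the 4 libraries, and MPO, HBG1 and HBG2 had 0, so the defining markers of mature blood cells were absent or near 0. GATA2 was high, at 1047 to 1222 counts. The list summed to 91.7 and 122 CPM in the OGG1 clones and 130 and 177 CPM in the MUTYH clones. Of 10 tested members, KIT and RUNX1 were lower and CD34 was higher in OGG1 knockout (30.0%, against 1.43% of all genes tested). KIT, the stem cell factor receptor, had 44 and 83 counts against 182 and 418 (log2FC -2.24 ± 0.53). RUNX1, a haematopoietic transcription factor, had 119 and 137 against 264 and 310 (log2FC -1.17 ± 0.31). Neither overlapped, both were called with each library left out (KIT at -1.57 without MUTYH clone 8 and -2.74 without OGG1 clone 22), and WT lay with MUTYH knockout, with 261 and 271 counts of KIT and 296 and 228 of RUNX1. CD34, a progenitor surface protein, had 9 and 23 against 4 and 5. Its call was lost without OGG1 clone 22, MUTYH clone 7 or MUTYH clone 8, at 0.99, 1.68 and 1.91. In bulk RNA, fewer cells of a kind and less RNA per cell cannot be told apart.

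All 5 tested epithelial markers had a log2FC above 0 (median 0.75), whereas 4 of 11 tested mesenchymal markers did (median -0.08). Over all genes tested this share was 50.5%. EPCAM, an epithelial adhesion protein, was the 1 DEG of 5 tested epithelial markers, with 27 and 33 counts against 3 and 12, and lost its call without MUTYH clone 7, at 1.34. CDH1, GRHL2 and KRT19 had at most 2 counts in any of the 4 libraries. The epithelial list summed to 79.2 and 107 CPM in OGG1 knockout and 75.4 and 50.5 CPM in MUTYH knockout. None of 11 tested mesenchymal markers was a DEG. With pairs as a replicate block over 8 libraries, 2 epithelial markers and 1 mesenchymal marker were DEGs, all higher in OGG1 knockout. VIM, the intermediate filament vimentin, had 7761 and 9042 counts against 9461 and 8059, and the list summed to 834 and 669 CPM against 916 and 556 CPM. PDGFRA, a growth factor receptor, was low in a single library, with 1712 and 1275 counts in the OGG1 clones and 2509 and 99 in the MUTYH clones.

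Large gene families were also examined. Of 435 tested genes of the ZNF list 3 were higher and 1 was lower in OGG1 knockout, or 0.92% in all, which is below the 1.43% of all genes tested. ZNF329 was given above. ZNF300 had 19 and 4 counts against 1 and 0, ZNF785 15 and 16 against 5 and 8, and ZNF404, the lower one, 5 and 3 against 28 and 11. All 3 were near the filter on low counts, and each lost its call without at least 1 library. ZNF300 was uncalled without OGG1 clone 1 (log2FC 2.69) or MUTYH clone 8 (3.33), and ZNF404 without OGG1 clone 22 (-1.94) or MUTYH clone 7 (-1.40). ZNF785 was uncalled in all 4 such fits, with a log2FC between 0.97 and 1.56.

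Of 26 tested clustered protocadherins, PCDHB5 was the 1 DEG (3.85%, against 1.43% of all genes tested). It had 112 and 143 counts in the OGG1 clones and 554 and 422 in the MUTYH clones, while the WT clones, at 512 and 150, and the DKO clones, at 240 and 40, were split. Its log2FC of -1.95 ± 0.83 was uncalled in all 4 fits with a library left out, at -2.17 to -1.70. Of 27 tested collagens, COL9A1 was the 1 DEG (3.7%), with 175 and 50 counts against 4 and 35. Most of this difference lay in clones 1 and 7, since the log2 difference was 4.87 in that pair and 0.50 in the pair of clones 22 and 8. The COL9A1 call was lost without OGG1 clone 1 (1.34) and without MUTYH clone 7 (1.72), and also with pairs as a replicate block over 8 libraries (2.29, P. value 0.051, edgeR).

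HOX genes gave 3 DEGs of 33 tested (9.09%, against 1.43% of all genes tested), all in the HOXD cluster and all higher in OGG1 knockout. HOXD9 had 23 and 13 counts against 7 and 1, HOXD10 26 and 21 against 8 and 1, and HOXD11 17 and 24 against 8 and 0. In all 3 the OGG1 clones lay above both MUTYH clones, at low counts. The neighbours did not follow, as HOXD8 had 132 and 183 counts against 107 and 167, HOXD12 14 and 12 against 13 and 17, and HOXD13 436 and 989 against 984 and 214. HOXD10 kept its call with each library left out, with a log2FC of 1.49 to 4.42. HOXD9 was uncalled without OGG1 clone 1 (1.63) or MUTYH clone 8 (1.30), and HOXD11 without OGG1 clone 1 (2.50), OGG1 clone 22 (2.05) or MUTYH clone 8 (1.29). HOXD10 and HOXD11 overlap on the same strand, so reads in the shared stretch may belong to either. HOXC11 had 1 and 184 counts against 9 and 9, while both DKO clones had 174 and 181.

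DEGs lay on every autosome and on X. In chromosomal order, 9 pairs of DEGs were direct neighbours among the tested genes with a position, and 7 of them had the same direction. The number of such pairs to be met without regard to position was not computed. PRDM16 and its divergent transcript PRDM16-DT were both lower in OGG1 knockout (log2FC -1.95 and -2.08), and S100A2 and S100A16, calcium-binding proteins of chromosome 1, were both higher (1.88 and 1.79). LBX1 was higher together with LBX1-AS1 (1.86 and 5.60). PTPN3 and its neighbour EPB41L4B, another FERM-domain gene, differed in opposite directions (4.69 and -1.08). The share of DEGs was highest on chromosome 10, with 18 of 601 tested genes (3.0%, against 1.43% of all genes tested). FRMD4A, MGMT, CHST15 and LBX1-AS1 were among them. The differences between chromosomes were not tested. The share was 0.392% on chromosome 6. The median log2FC of an autosome lay between -0.02 and 0.05, and on X it was 0.05.

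Promoters of the DEGs were poorer in CpG than those of tested genes at large. RefSeq promoters of 250 bases were matched for 11561 tested genes. The median ratio of observed to expected CpG (number of CpG times length, divided by number of C times number of G) was 0.815 over these, 0.614 in 91 DEGs higher and 0.637 in 69 DEGs lower in OGG1 knockout. The ratio was at least 0.6 in 78.5%, 50.5% and 50.7% of them. Among genes under 5 CPM the share was 57.1% of all tested and 48.6% of DEGs. At 5 CPM or more it was 84.2% of tested genes and 54.5% of 55 DEGs. The shares lay further apart there, but the median level was 43.3 CPM in those tested genes and 10.3 CPM in the DEGs. Under 5 CPM these medians were 1.34 and 1.39 CPM, so only the lower groups were alike in level. The shares were not tested. THSD7B and MGMT, whose windows are printed above, had ratios of 0.669 and 0.995, whereas the windows of PTPN3 and NPR3 held 0 CpGs. Where RefSeq lists several starts for a gene, the first listed was used, which need not be the one active in HAP1.

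**Figure D4:**
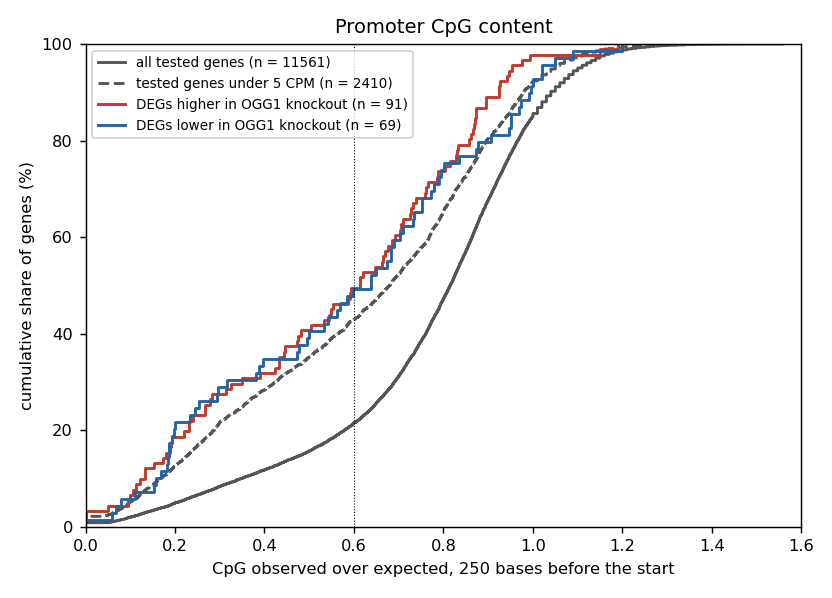
Cumulative share of genes (y axis, %) by the CpG observed over expected ratio of the 250 bases before the RefSeq start (x axis), for all tested genes, tested genes under 5 CPM and DEGs in each direction, with a dotted line at 0.6. Both DEG curves lie left of all tested genes, with medians of 0.614 and 0.637 against 0.815, and close to the dashed curve of genes under 5 CPM.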

How the data were processed

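RNA was sequenced by BGI on the DNBseq platform. The authors aligned reads to GRCh38 with HISAT2 2.2.1 and counted them per gene with featureCounts of Rsubread 2.2.6 against an Ensembl GRCh38 annotation, and deposited whole-number counts, not normalized. Strand setting and treatment of multi-mapping reads are not given in the sources used here, so reads of overlapping genes and paralogs may be assigned in more than 1 way. Column names matched sample titles, and 0 columns were left unassigned.

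The 8 untreated libraries were fitted together in edgeR 4.0.16 (R 4.3.3) with TMM factors (0.96 to 1.017 in the 4 knockout libraries) and filterByExpr by genotype. The contrast was taken by the two-sided quasi-likelihood F test in its edgeR 3 form (legacy=TRUE) with 4 residual degrees of freedom. Log2 CPM used a prior count of 2, and errors are SE for log2FC and SD for CPM. Libraries differed beyond counting noise (chi-square per degree of freedom at least 12.3). The script was tested on simulated counts. The pairing of clones 1 with 7 and 22 with 8 is not in the labels. Across 17881 genes, clone differences within OGG1 and MUTYH knockout correlated at 0.296. Exact binomial intervals cover counting error only, since reads are not independent molecules.

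Members, lists and tests were chosen with earlier results of these data known. Named genes were OGG1, MUTYH, genes passing the adjusted p with or without the block over 8 libraries, the 10 DEGs per direction with the smallest P. value that did not overlap, reached 1 CPM and differed beyond 1 in both pairs, and DEGs of 26 lists. Genes outside this rule are said to be, and some results that it selects are not reported here. Positions are from GENCODE 44 on GRCh38, matched by symbol for 65.2% of genes. Promoters are from RefSeq (GRCh38.p14). Alternatives were DESeq2 1.42.0, its size factors, edgeR 4 settings, other filters, other library sets, the pair as replicate block, and each library left out.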

Additional observations from a re-analysis of the deposited data

Results flagged for a closer look

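In 3 genes of the lists the 2 matched pairs of clones pointed in opposite directions, each beyond 2 on the log2 scale. The difference between the pairs was not tested. GSTM3, a mu-class glutathione transferase, was 2.08 higher in OGG1 clone 22 than in MUTYH clone 8, and the log2 difference of OGG1 clone 1 minus MUTYH clone 7 was -7.24. It had 0 and 129 counts in OGG1 clones 1 and 22 and 289 and 29 in MUTYH clones 7 and 8. COL3A1, a fibrillar collagen, had log2 differences of 2.73 for clone 22 minus clone 8 and -2.78 for clone 1 minus clone 7. Its counts were 19 and 18 in the OGG1 clones and 139 and 1 in the MUTYH clones, so the MUTYH clones were the ones that differed. PCDHB2, a clustered protocadherin, had log2 differences of 4.39 for clone 22 minus clone 8 and -3.32 for clone 1 minus clone 7, with 10 and 82 counts in the OGG1 clones and 115 and 2 in the MUTYH clones. None of the 3 genes was a DEG between the genotypes.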

How the results depend on the processing

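The count of 256 DEGs was 490 without a filter on low counts and 101 with at least 10 counts in every library. It was 453 without the fold threshold and 101 with a log2FC beyond 2. With each library left out in turn it ranged from 260 to 532. The count was 473 without MUTYH clone 7 and 532 without OGG1 clone 1, where the lone remaining clone is assumed to vary like the other groups. The other alternatives gave 186 to 328 DEGs. The 256 DEGs shared 143, 112, 140 and 93 calls with the fits without OGG1 clone 1, OGG1 clone 22, MUTYH clone 7 and MUTYH clone 8. DEGs higher in OGG1 knockout made up 59.8%, and 70.5% without MUTYH clone 8. The 1 gene by adjusted p became 16 with DESeq2, 4 without a filter and 9 with the pair as replicate block in 4 libraries, while it stayed 1 with that replicate block in 8 libraries. It became 0 with edgeR 4 settings (477 at the unadjusted threshold), at least 10 counts (340), 4 libraries alone (283), 6 libraries without WT (404) and in each of the 4 fits with a library left out (337 to 1060), all by edgeR. Of the 39 named genes none that was called changed direction, and 6, 10, 9 and 12 lost the call without OGG1 clone 1, OGG1 clone 22, MUTYH clone 7 and MUTYH clone 8. The replicate block in 8 libraries ended the call of COL9A1 (log2FC 2.29) and of no other named gene. Of 14 lists without a DEG, 5 stayed at 0 in every alternative run (after-glycosylase repair, peroxide enzymes, S-phase, mitochondrial mRNAs and FASTK), and the others reached 1 to 3. DEGs under 1 CPM rest on few counts.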
